A study of Thermothelomyces thermophilus ATCC 42464 with 8 samples.

Results

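The d-xylose catabolism genes of the thermophilic fungus Myceliophthora thermophila are 5 of the 9110 genes in the expression tables. They were taken by gene identifier, not by their measured values. They are Mtxyl1 (MYCTH_43671), MYCTH_113236, xdh1 (MYCTH_2293953), xkia (MYCTH_67060) and Mtxyd1 (MYCTH_112471). All 5 passed the filter on low counts, and the lowest count of any of them in any library was 2066.

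Fungi usually take up d-xylose through an oxo-reductive route. A d-xylose reductase of the aldo–keto reductase family reduces the sugar to xylitol, xylitol dehydrogenase oxidises xylitol to d-xylulose, and d-xylulokinase phosphorylates d-xylulose to d-xylulose 5-phosphate, which enters the pentose phosphate pathway. In the oxidative route a d-xylose dehydrogenase oxidises d-xylose instead, which leads to d-xylonate, and in the Weimberg pathway of bacteria d-xylonate is converted further to α-ketoglutarate. Of the genes described here, Mtxyl1, xdh1 and xkia belong to the oxo-reductive route, and Mtxyd1 encodes the d-xylose dehydrogenase of the fungus itself. MYCTH_113236 is placed in the oxo-reductive route by annotation only. In the study, its deletion had no obvious effect on growth on d-xylose, whereas deletion of Mtxyl1 hindered use of the sugar.

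RNA-seq libraries came from 4 strains, with 2 libraries each, after preculture for 24 h with 2% glucose and transfer of the mycelium to 1% d-xylose for 4 h, at 45 °C and 150 rpm. DF1406 was disrupted in Mtxyl1 and overexpressed Mtxyd1, xylD, xylX and xylA. DF1501 was disrupted in Mtxyl1 and overexpressed Mtxyd1, xylD, BxxylX and KsaD. DF1102 was disrupted in Mtxyl1 only, and JG207 was the starting strain with Mtxyl1 intact. JG207 itself overexpresses Aomae, for a malate transporter, and Aopyc, for a pyruvate carboxylase, so all 4 strains share this background. In DF1406 and DF1501 the added genes were inserted at random in several copies, and the added Mtxyd1 was driven by the constitutive promoter Ptef. The added Mtxyd1 has the coding sequence of the native gene, so counts of the native and added copies of Mtxyd1 cannot be told apart. The strains thus allow the expression of both routes to be compared when the first step of the oxo-reductive route is disrupted, and when the dehydrogenase is also added. The study's methods describe donors with either a marker cassette or a stop codon between the 2 flanks of the Mtxyl1 target. Which donor made each strain is not given in the sources used here.

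Library totals ran from 20727346 to 21408353 counts. Levels are given as RPKM, that is, counts scaled by the length of the gene and the total of the library. Fold changes were fitted to the counts with edgeR's quasi-likelihood test over 8335 genes, and every adjusted p below is from this test with Benjamini-Hochberg adjustment over these genes unless another is named. Standard errors of log2 fold changes are written as SE. A gene was called when its adjusted p did not exceed 0.05 and its fold reached 2 in comparisons with JG207 or 1.5 in the others. It is not stated whether both libraries of a strain are from separate cultures, so p-values reflect only how far these libraries differ, which may be technical. In RNA of whole mycelium, a change in the number of cells with a transcript and a change in RNA per cell cannot be told apart. The libraries of DF1501 differed more from each other than those of the other strains. In log2 CPM (counts scaled by library size and TMM normalisation factors), the root mean square deviation from the strain mean was 0.20 in DF1501. It was 0.14, 0.14 and 0.16 in DF1406, DF1102 and JG207.

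Mtxyl1, the d-xylose reductase gene and the disrupted gene, was lowest in DF1406 and highest in JG207. It stood at 102 and 109 RPKM in DF1406, 252 and 228 in DF1501, 412 and 383 in DF1102, and 1676 and 1773 in JG207. No 2 strains overlapped. The strain means in DF1406, DF1501 and DF1102 were 6.11%, 13.9% and 23.0% of the mean in JG207, so the targeted gene was lower than in JG207 in each strain labelled as disrupted, with counts still assigned to it. By RPKM it ranked 1096 and 1033 of the 9110 genes in DF1406, 484 and 531 in DF1501, 233 and 266 in DF1102, and 51 and 50 in JG207. These counts came to between 2066 and 2224 in DF1406, 4587 and 5108 in DF1501, and 7791 and 8467 in DF1102. A single count per gene is given, so where in Mtxyl1 these reads lie was not analysed. Against JG207, Mtxyl1 fell by 3.97 on the log2 scale in DF1406 (SE 0.16, edgeR adjusted p = 3.6e-06), the second lowest of the 8335 fold changes in that comparison. The 3 disrupted strains also differed from each other. Mtxyl1 fell by 1.85 in DF1406 against DF1102 (SE 0.14, edgeR adjusted p = 5.7e-04) and by 0.73 in DF1501 against DF1102 (SE 0.14, edgeR adjusted p = 0.0051). In DF1406 against DF1501 it fell by 1.12 (SE 0.14, edgeR adjusted p = 0.0075). That last call was lost in edgeR without DF1406 replicate 1 (adjusted p = 0.0902), without DF1406 replicate 2 (0.0702) and with only the 4 libraries compared (0.0502), with log2 fold changes between -1.19 and -1.05.

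MYCTH_113236 encodes the other aldo–keto reductase annotated as a d-xylose reductase, and it was not disrupted in any of the 4 strains. Its level moved least of the 5 genes. It stood at 160 and 171 RPKM in DF1406, 142 and 148 in DF1501, 112 and 118 in DF1102, and 118 and 122 in JG207. DF1406 was above DF1501, and DF1501 above the other 2 strains, which overlapped. In DF1102 against JG207 it was not called, at a log2 fold change of -0.06 (SE 0.10, edgeR adjusted p = 0.62). In DF1406 against JG207 the log2 fold change was 0.52 (SE 0.10, edgeR adjusted p = 0.0049), a fold of 1.44 and so below the fold of 2. Against DF1102 it rose in DF1406 by 0.59 (SE 0.10, edgeR adjusted p = 0.0083), a fold of 1.504, just past the minimum of 1.5. This call was lost, at log2 fold changes of 0.52 or 0.53, when counts were scaled by library size alone and in all 3 limma fits on log2 RPKM. It was lost too without DF1102 replicate 1 (adjusted p = 0.0773) and without DF1406 replicate 2 (0.0599).

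The share of MYCTH_113236 in the summed RPKM of the 2 annotated reductase genes was highest in DF1406 and lowest in JG207. Of the 2, only Mtxyl1 was called against JG207, in all 3 disrupted strains. MYCTH_113236 made up 61.1% and 61.1% of the sum in the libraries of DF1406, and 36.1% and 39.4% in DF1501. Its share was 21.3% and 23.6% in DF1102, and 6.56% and 6.42% in JG207. The sum itself was 262 and 279 RPKM in DF1406, 394 and 376 in DF1501, 524 and 501 in DF1102, and 1794 and 1895 in JG207. MYCTH_113236 was thus the more abundant transcript of the 2 in DF1406 only. Mtxyl1 transcripts of the disrupted strains are included in these sums.

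The gene of the second step, xdh1, encodes xylitol dehydrogenase. Its level in all 3 disrupted strains lay above that in JG207. It stood at 826 and 919 RPKM in DF1406, 953 and 734 in DF1501, 1168 and 1289 in DF1102, and 515 and 510 in JG207. DF1102 was highest, JG207 was below all other libraries, and DF1406 and DF1501 overlapped. The only comparison in which xdh1 was called was DF1102 against JG207, where it rose by 1.26 on the log2 scale (SE 0.20, edgeR adjusted p = 6.0e-04). Against JG207 the log2 fold change was 0.83 in DF1406 (SE 0.19, edgeR adjusted p = 0.0105) and 0.72 in DF1501 (SE 0.19, edgeR adjusted p = 0.0312), both under the fold of 2. Against DF1102 it was -0.43 in DF1406 (SE 0.19, edgeR adjusted p = 0.14) and -0.54 in DF1501 (SE 0.19, edgeR adjusted p = 0.057). Without DF1501 replicate 1, which was the higher library, the value against DF1102 was -0.79 and was called (adjusted p = 0.0086). Between DF1406 and DF1501 it was 0.11 (SE 0.19, edgeR adjusted p = 0.78), and -0.11 without DF1501 replicate 2.

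For xkia, which encodes the d-xylulokinase at the entry to the pentose phosphate pathway, the strains took the same order. It stood at 215 and 238 RPKM in DF1406, 185 and 135 in DF1501, 254 and 261 in DF1102, and 80.9 and 91.9 in JG207. No strains overlapped in RPKM, although the libraries of DF1501 differed 1.36-fold. In log2 CPM, DF1406 replicate 2 lay above DF1102 replicate 1, so DF1406 and DF1102 overlapped on that scale. Against JG207 xkia rose by 1.45 on the log2 scale in DF1406 (SE 0.18, edgeR adjusted p = 4.3e-04) and by 1.57 in DF1102 (SE 0.18, edgeR adjusted p = 1.1e-04). In DF1501 against JG207 the log2 fold change was 0.89 (SE 0.18, edgeR adjusted p = 0.0094), under the fold of 2, and without DF1501 replicate 2 it was 1.14 and was called (adjusted p = 3.8e-04). Against DF1102, xkia fell by 0.68 in DF1501 (SE 0.18, edgeR adjusted p = 0.0170), while DF1406 was at -0.12 (SE 0.18, edgeR adjusted p = 0.66). The call in DF1501 against DF1102 was lost without DF1501 replicate 2 (a log2 fold change of -0.43, adjusted p = 0.0573), without DF1102 replicate 1 (adjusted p = 0.0683) and without DF1102 replicate 2 (0.0897). Between DF1406 and DF1501 the value was 0.56 (SE 0.18, edgeR adjusted p = 0.10), and without DF1501 replicate 1 it was 0.86 and was called (adjusted p = 0.0066).

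Mtxyd1, for the d-xylose dehydrogenase, had the widest range of the 5 genes and the opposite order to Mtxyl1. It stood at 4071 and 3640 RPKM in DF1406, 1947 and 1982 in DF1501, 1137 and 1194 in DF1102, and 244 and 216 in JG207. All 4 strains were apart. Among the 9110 genes, Mtxyd1 ranked 13 and 16 by RPKM in the libraries of DF1406, 33 in both of DF1501, 70 in both of DF1102, and 505 and 563 in JG207. It held 0.835% and 0.746% of all counts in DF1406, against 0.050% and 0.044% in JG207. Against JG207 it rose by 4.12 on the log2 scale in DF1406 (SE 0.22, edgeR adjusted p = 7.3e-06), by 3.08 in DF1501 (SE 0.21, edgeR adjusted p = 4.8e-05) and by 2.33 in DF1102 (SE 0.20, edgeR adjusted p = 3.3e-05). DF1102 carries no added copy, so its rise is of the native gene, while the rise in DF1406 and DF1501 sums native and added copies.

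Beyond the level of DF1102, Mtxyd1 rose by 1.79 on the log2 scale in DF1406 (SE 0.20, edgeR adjusted p = 0.0016), a fold of 3.45, and by 0.75 in DF1501 (SE 0.19, edgeR adjusted p = 0.0175), a fold of 1.68. The 2 strains that overexpress it differed too, at 1.04 in DF1406 against DF1501 (SE 0.20, edgeR adjusted p = 0.0234). The call in DF1501 against DF1102 was lost without DF1102 replicate 1 (adjusted p = 0.11), without DF1102 replicate 2 (0.0757) and with only the 4 libraries compared (0.0549). The call between DF1406 and DF1501 was lost without DF1406 replicate 1 (adjusted p = 0.142) or 2 (0.123), without DF1102 replicate 1 (0.0588) or 2 (0.0597), and with only the 4 libraries compared (0.115). In these fits the log2 fold changes lay between 0.70 and 0.80 for DF1501 against DF1102, and between 0.98 and 1.10 for DF1406 against DF1501.

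**Figure D1:**
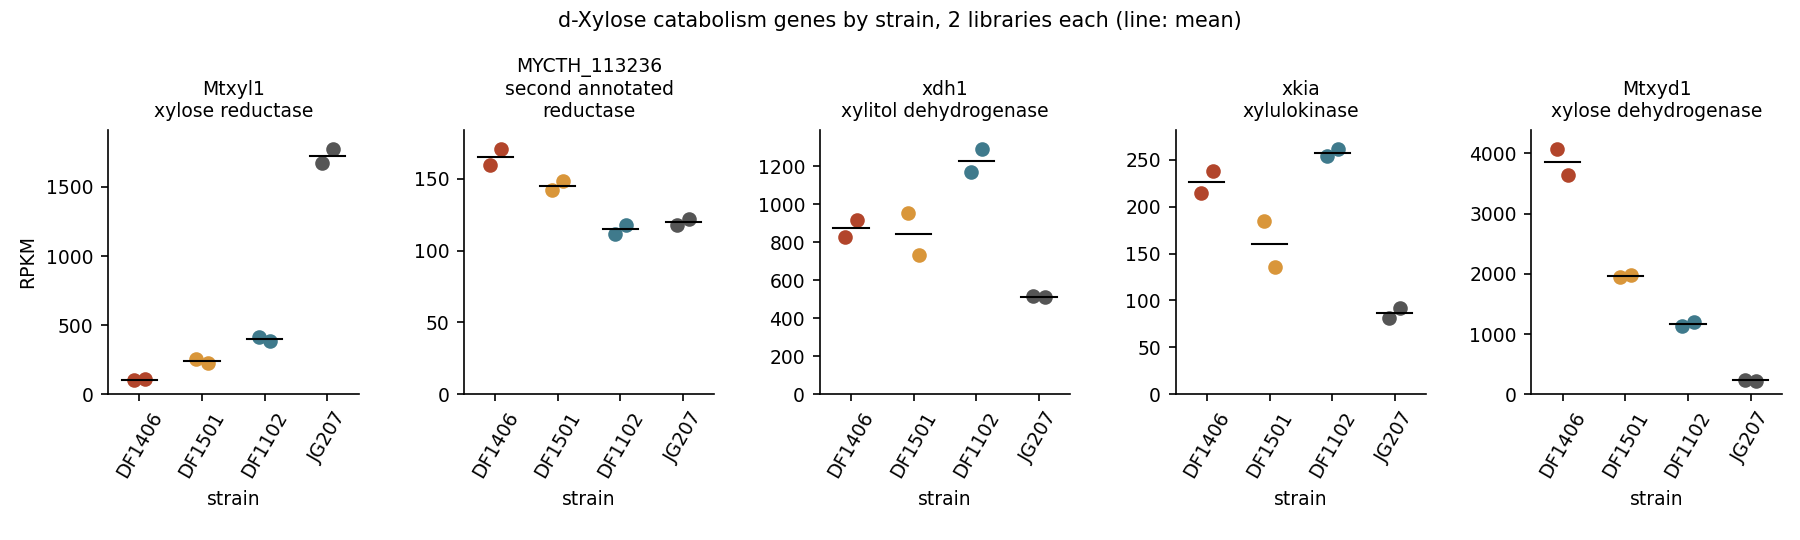
RPKM of each gene (y axis, from 0, with its own scale in each panel) by strain (x axis), with a point for each of the 2 libraries and a line at their mean. Mtxyl1 climbs and Mtxyd1 drops in order from DF1406 to JG207, xdh1 and xkia are highest in DF1102 and lowest in JG207, and MYCTH_113236 stays between 112 and 171 RPKM.

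Counted over the 5 genes, DF1102 against JG207 had the most calls. There 3 genes were higher (xdh1, xkia and Mtxyd1), 1 was lower (Mtxyl1) and 1 was not called, beside 21.3% of all tested genes called in either direction. In DF1406 against JG207, 2 were higher (xkia and Mtxyd1) and 1 lower, beside 11.1% of all tested genes. In DF1501 against JG207, 1 was higher (Mtxyd1) and 1 lower (Mtxyl1), beside 5.99%. Both genes called there were altered in making the strain, Mtxyl1 by disruption and Mtxyd1 by added copies. These 3 comparisons share the libraries of JG207. The median log2 fold change over the 5 genes was 0.83 in DF1406, 0.72 in DF1501 and 1.26 in DF1102, and over all tested genes it was -0.05, -0.01 and -0.01. With no fold minimum, 5, 4 and 4 of the genes passed in the same 3 comparisons, which added MYCTH_113236 and xdh1 in DF1406, and xdh1 and xkia in DF1501. In edgeR with only the 4 libraries compared, xdh1 in DF1501 was past 0.05 (adjusted p = 0.0967). Its log2 fold change there was 0.48 without DF1501 replicate 1 and 0.93 without DF1501 replicate 2.

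Against DF1102, 2 genes were higher in DF1406 (MYCTH_113236 and Mtxyd1) and 1 lower (Mtxyl1), beside 12.1% of all tested genes. That background is 1011 calls with all libraries, and it was 166 or 346 calls without DF1102 replicate 1 or 2, and 452 or 340 without DF1406 replicate 1 or 2. In DF1501 against DF1102, 1 was higher (Mtxyd1) and 2 were lower (Mtxyl1 and xkia), beside 21.3%, that is, 1777 calls, or 1183 without DF1102 replicate 1. In DF1406 against DF1501, Mtxyd1 was higher and Mtxyl1 lower, beside 3.79%. Both of these genes were altered in making each of the strains. The median over the 5 genes was -0.12 in DF1406 against DF1102, -0.54 in DF1501 against DF1102 and 0.25 in DF1406 against DF1501, with medians over all tested genes of -0.006, -0.002 and -0.013. The background of DF1406 against DF1501 rests on 316 calls, against 3 calls with only the 4 libraries compared.

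**Figure D2:**
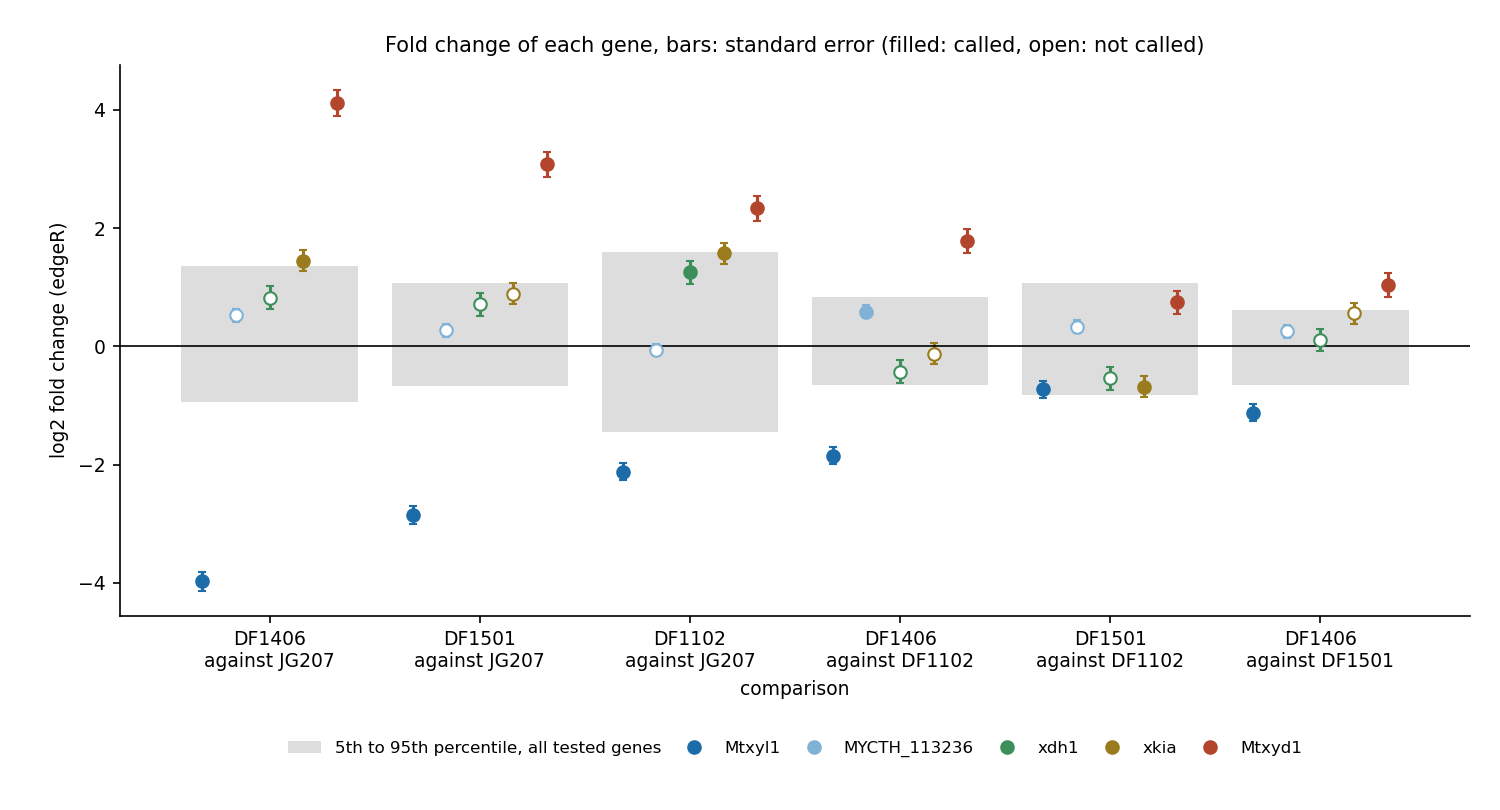
Log2 fold change from edgeR (y axis) of each gene in the 6 comparisons (x axis), with bars for the standard error, filled points for called genes and open points for others. Grey bands span the 5th to the 95th percentile of all tested genes. Mtxyd1 lies above the band in 5 of the comparisons and inside it in DF1501 against DF1102, and Mtxyl1 lies below the band in 5 of them and inside it in DF1501 against DF1102.

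The levels of the 2 routes were also set against each other within a library, as ratios of RPKM. In JG207 the order of the mean levels was Mtxyl1, xdh1, Mtxyd1, MYCTH_113236 and xkia. In DF1102 xdh1 and Mtxyd1 came first and overlapped, followed by Mtxyl1. In DF1406 and DF1501 Mtxyd1 came first and xdh1 next. Mtxyl1 was last in DF1406, and in DF1501 it came after xdh1 and before xkia and MYCTH_113236, which overlapped there.

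Mtxyd1 transcripts per length were 40.0 and 33.4 times those of Mtxyl1 in DF1406, 7.72 and 8.71 times in DF1501, 2.76 and 3.12 times in DF1102, and 0.145 and 0.122 times in JG207. The mean log2 ratio was 5.19 ± 0.18 in DF1406, 3.04 ± 0.12 in DF1501, 1.55 ± 0.12 in DF1102 and -2.91 ± 0.18 in JG207 (SD, n = 2 each). The ratio differed among the 4 strains (exact permutation test of the F statistic over all groupings of the 8 libraries in pairs, p = 0.0095, which is the smallest that these groupings can give, adjusted over the 4 ratios p = 0.0127). Mtxyl1 is the disrupted gene and Mtxyd1 an added one, so the design itself sets part of this ratio. With 2 libraries each, no pair of strains can be tested this way.

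Mtxyd1 over xdh1 does not involve the disrupted gene. Mtxyd1 was at 4.93 and 3.96 times the level of xdh1 in DF1406, 2.04 and 2.70 times in DF1501, 0.974 and 0.926 times in DF1102, and 0.474 and 0.424 times in JG207. The ratio differed among strains by the same exact permutation test (p = 0.0095, adjusted p = 0.0127). Mtxyd1 was added in DF1406 and DF1501, so the design itself sets part of this ratio there, and the limit on its level per length holds here too. The test covers all 4 strains at once and cannot decide whether DF1102 differed from JG207. In DF1102, the only disrupted strain without an added copy, Mtxyd1 and xdh1 were nearly equal per length. In both libraries of JG207 xdh1 was the higher.

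Within the oxo-reductive route, the ratio of xdh1 over Mtxyl1 was 8.11 and 8.44 in DF1406, 3.78 and 3.22 in DF1501, 2.83 and 3.37 in DF1102, and 0.307 and 0.288 in JG207. DF1501 and DF1102 overlapped. This ratio differed among the 4 strains as well (exact permutation test, p = 0.0190, adjusted p = 0.0190). Mtxyl1 is the disrupted gene, so the design itself sets part of this ratio too. The ratio of xkia over xdh1 had the narrowest span, and strain means of its log2 lay within 0.62 of each other, at -1.95 in DF1406, -2.40 in DF1501, -2.25 in DF1102 and -2.57 in JG207. It also differed among strains (exact permutation test, p = 0.0095, adjusted p = 0.0127). In every library xdh1 was between 3.84 and 6.36 times as abundant per length as xkia.

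**Figure D3:**
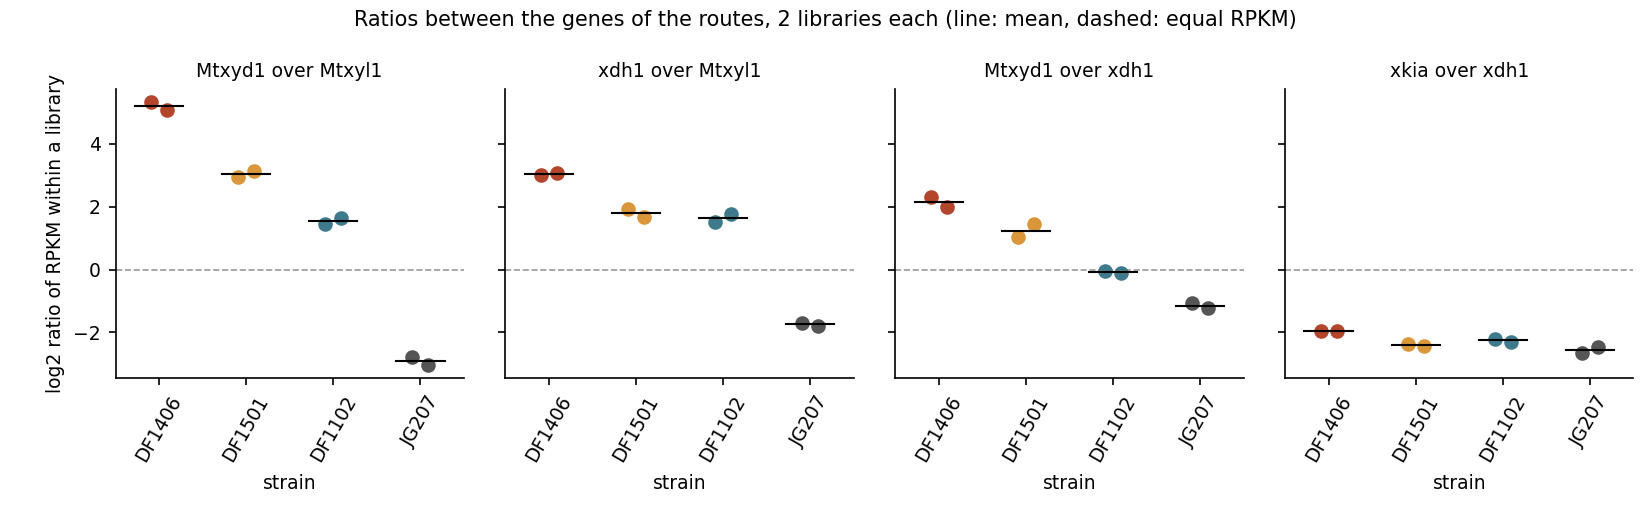
Log2 ratio of RPKM between pairs of the genes within each library (y axis, 0 means equal RPKM) by strain (x axis), with a point for each of the 2 libraries and a line at their mean. Mtxyd1 over Mtxyl1 spans 8.10 between the highest and lowest strain means, xdh1 over Mtxyl1 spans 4.80, Mtxyd1 over xdh1 spans 3.30, and xkia over xdh1 spans 0.62.

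The pentose phosphate pathway receives the product of xkia, and 6 of its genes were followed beside the 5. In DF1102 against JG207, 2 of the 6 were lower and 0 higher, beside 11.1% of all tested genes lower and 10.2% higher, and the median log2 fold change was -0.57. These were rpi, for the isomerase of ribose 5-phosphate, which fell by 1.33 (SE 0.12, edgeR adjusted p = 4.1e-05), and tal, for transaldolase, which fell by 1.19 (SE 0.16, edgeR adjusted p = 2.7e-04). The epimerase gene rpe, whose product interconverts ribulose 5-phosphate and xylulose 5-phosphate, was at -0.78 (SE 0.11, edgeR adjusted p = 4.0e-04), under the fold of 2. The transketolase gene tkl, whose product uses xylulose 5-phosphate directly, was at -0.34 (SE 0.17, edgeR adjusted p = 0.12). In that comparison, xkia and xdh1 were thus higher while rpi and tal were lower.

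Against JG207, 0 of the 6 pentose phosphate genes were called in DF1406 or DF1501 by edgeR, and 0 by DESeq2 or limma on log2(RPKM + 1). Of all tested genes, edgeR called only 11.1% in DF1406 and 5.99% in DF1501, so 0 of 6 is near the background. At an unadjusted p below 0.05, 3 of the 6 passed in DF1406 and 1 in DF1501. The largest change in DF1406 was -0.60, for rpi (SE 0.12, edgeR adjusted p = 0.0054), under the fold of 2. In DF1406 and DF1501, rpe was at -0.26 and 0.04, tkl at 0.29 and 0.32, and tal at -0.37 and -0.15. The median over the list was -0.12 in DF1406 and -0.04 in DF1501.

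Against DF1102, 3 of the 6 were higher in DF1406 and 4 in DF1501, and 0 were lower in either, with medians of 0.57 and 0.74. The share of all tested genes called higher was 7.81% in DF1406 and 13.1% in DF1501, and that called lower was 4.32% and 8.24%. In DF1501 rpi rose by 1.05 (SE 0.12, edgeR adjusted p = 7.6e-04), tal by 1.04 (SE 0.16, edgeR adjusted p = 0.0021), rpe by 0.82 (SE 0.11, edgeR adjusted p = 0.0014) and tkl by 0.66 (SE 0.17, edgeR adjusted p = 0.0172). In DF1406 tal rose by 0.82 (edgeR adjusted p = 0.0109), rpi by 0.74 (edgeR adjusted p = 0.0066) and tkl by 0.63 (edgeR adjusted p = 0.0311). In DF1406 rpe was at 0.52 (edgeR adjusted p = 0.0150), under the fold of 1.5. The RPKM of tal was 1106 and 1163 in DF1406, 1351 and 1432 in DF1501, 654 and 692 in DF1102, and 1542 and 1518 in JG207. By RPKM, DF1102 was thus lowest in tal and highest in xkia. The 3 calls in DF1406 became 0 without DF1102 replicate 1, without DF1102 replicate 2 or without DF1406 replicate 2, and 1 without DF1406 replicate 1. The call of tkl in DF1406 was also lost in limma and with library size alone. In DF1501, tkl lost its call without DF1102 replicate 1, DF1102 replicate 2 or DF1501 replicate 1, and with only the 4 libraries compared. In DF1406 against DF1501, edgeR, DESeq2 and limma on log2(RPKM + 1) each called 0 of the 6, and 2 had an unadjusted p below 0.05. Of all tested genes, edgeR called 3.79% there.

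**Figure D4:**
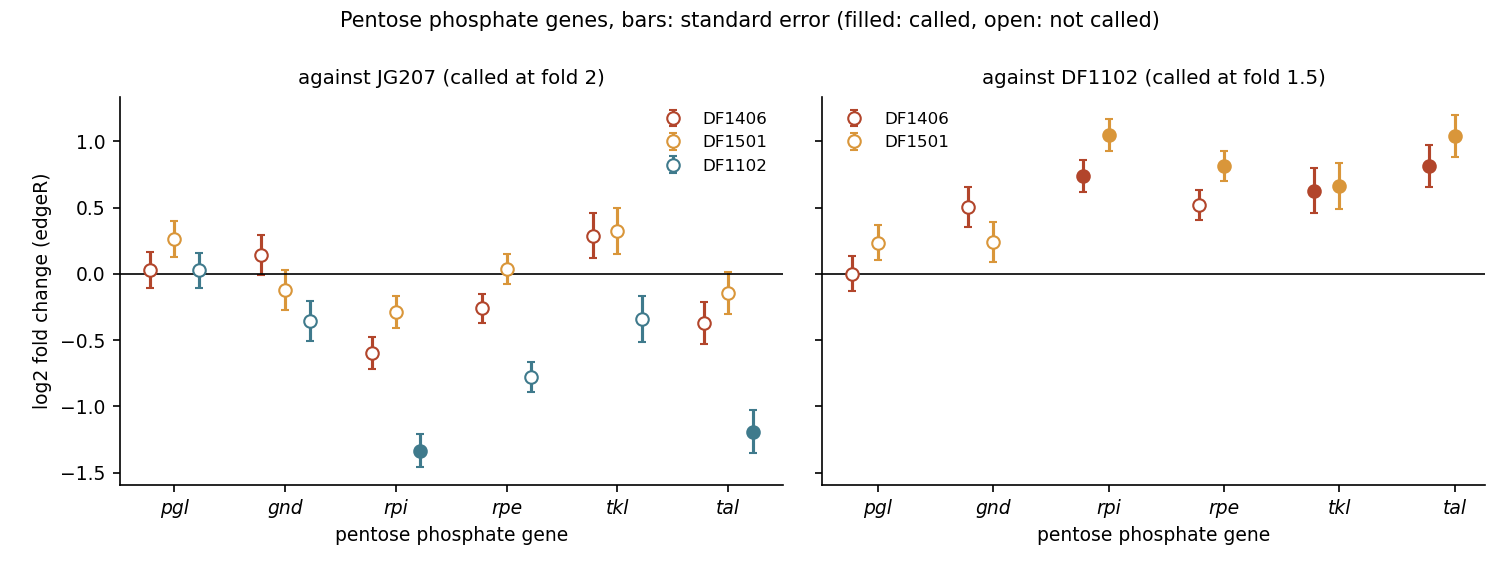
Log2 fold change from edgeR (y axis) of the 6 pentose phosphate genes (x axis), against JG207 at the left and against DF1102 at the right, with bars for the standard error, filled points for called genes and open points for others. In DF1102 against JG207 rpi and tal are called lower, and against DF1102 3 genes are called higher in DF1406 and 4 in DF1501.

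A list of 6 genes around α-ketoglutarate, the end product of the Weimberg pathway, was followed as well. Of the 6, 1 was higher (gdh2) and 1 lower (gdh1) than in JG207 in each of DF1406, DF1501 and DF1102, beside 11.1%, 5.99% and 21.3% of all tested genes called in either direction. The NAD-dependent gene gdh2, whose product degrades glutamate to α-ketoglutarate, stood at 151 and 131 RPKM in DF1406, 225 and 177 in DF1501, 208 and 210 in DF1102, and 51.2 and 55.0 in JG207. The NADP-dependent gene gdh1, whose product makes glutamate from α-ketoglutarate, stood at 17.1 and 23.7 RPKM in DF1406, 13.4 and 11.6 in DF1501, 19.4 and 15.7 in DF1102, and 121 and 113 in JG207. Against JG207, gdh2 rose by 1.47, 1.92 and 1.97 on the log2 scale in DF1406, DF1501 and DF1102 (edgeR adjusted p = 2.8e-04, 1.8e-04 and 3.0e-05). Against JG207, gdh1 fell, with log2 fold changes of -2.46, -3.24 and -2.75 in the same order (edgeR adjusted p = 3.7e-05, 3.4e-05 and 1.3e-05). Against DF1102, 13.1% of all tested genes were called higher in DF1501 and 8.24% lower. There both isocitrate dehydrogenase (idh) genes rose, MYCTH_2295514 by 0.78 (edgeR adjusted p = 0.0037) and MYCTH_2132657 by 0.69 (edgeR adjusted p = 0.0038). Of these, 1 was left without DF1102 replicate 1. In DF1406 against DF1102, 0 of the 6 were called by edgeR, DESeq2 or limma, and 3 had an unadjusted p below 0.05. Of all tested genes, edgeR called 12.1% there. In DF1406 against DF1501 edgeR and limma called 0 of the 6, beside 3.79% of all tested genes called by edgeR. DESeq2 called 1 there, gdh1, which edgeR put at 0.77 (adjusted p = 0.0517), and 3 of the 6 had an unadjusted p below 0.05. Without DF1501 replicate 1 edgeR called gdh1, and without DF1501 replicate 2 it called gdh2. The median over the list lay between -0.48 (DF1102 against JG207) and 0.27 (DF1406 against DF1102).

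Other genes could carry enzymes of the same kinds. In the files, 11 more genes have a Saccharomyces cerevisiae match described with xylose, xylitol, xylulose, sorbitol, aldose, aldo-keto or arabinose, tkl among them, and 10 passed the filter. MYCTH_2138881, described as a xylitol dehydrogenase, did not pass, at between 0.0363 and 0.186 RPKM. In DF1102 against JG207, 1 of the 10 was higher, MYCTH_62052, described as a sorbitol dehydrogenase, by 1.26 (SE 0.14, edgeR adjusted p = 1.1e-04), beside 10.2% of all tested genes higher and 11.1% lower. MYCTH_2141012, described as an aldo–keto reductase that acts on α-keto amides, was the 1 lower gene and fell by 1.71 (SE 0.13, edgeR adjusted p = 1.8e-05). It fell by 1.20 in DF1406 against JG207 as well (edgeR adjusted p = 2.0e-04). MYCTH_110022, described as an NADPH-dependent aldo–keto reductase, rose by 1.18 in DF1406 against JG207 (SE 0.15, edgeR adjusted p = 5.9e-04). It stood at 267 and 280 RPKM in DF1406, 272 and 218 in DF1501, 239 and 254 in DF1102, and 128 and 124 in JG207. In every library of DF1406, this gene was above both Mtxyl1 and MYCTH_113236.

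In DF1501 against JG207, edgeR, DESeq2 and limma each called 0 of the 10 described genes, and 7 had an unadjusted p below 0.05. Of all tested genes, edgeR called only 5.99% there, so 0 of 10 is near the background. MYCTH_110022 was nearest the threshold, at 0.96, and was called without JG207 replicate 1 or without DF1501 replicate 2. Against DF1102, 4 were higher and 1 lower in DF1501, beside 13.1% of all tested genes higher and 8.24% lower. The largest rise was of MYCTH_2060529, described by its likeness to sorbitol dehydrogenase, by 0.94 (edgeR adjusted p = 0.0138), at only 1.15 to 2.68 RPKM in the 8 libraries. Next were MYCTH_2141012 by 0.92 (edgeR adjusted p = 0.0016) and MYCTH_2305468 by 0.80 (edgeR adjusted p = 0.0051). MYCTH_2305468, described as a glycerol dehydrogenase of the aldo–keto reductase family, was also low, at 5.02 to 9.55 RPKM. MYCTH_2060529 lost this call without DF1102 replicate 2. In DF1406 against DF1102 the 1 gene called was tkl, beside 12.1% of all tested genes. In DF1406 against DF1501, 0 of the 10 were called by edgeR, DESeq2 or limma, and 3 had an unadjusted p below 0.05. The share of all tested genes called by edgeR was 3.79%. Medians over the list were 0.27, 0.45 and -0.16 against JG207 in DF1406, DF1501 and DF1102, and 0.23, 0.06 and 0.13 in DF1406 against DF1102, DF1501 against DF1102 and DF1406 against DF1501.

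Genes next to the 5 were looked up in the RefSeq annotation, where 0 annotated genes overlap any of them. Of the neighbours with values, only MYCTH_2312616 was called against JG207. MYCTH_2312612, beside Mtxyd1 and described as an aldose reductase, stood between 22.6 and 28.8 RPKM in all 8 libraries and was not called in any of the 3 comparisons with JG207. On the other side of Mtxyd1, MYCTH_2312616 fell where Mtxyd1 rose, with log2 fold changes against JG207 of -1.58 in DF1406, -1.14 in DF1501 and -1.65 in DF1102 (edgeR adjusted p = 2.1e-04, 0.0023 and 7.0e-05). Both neighbours of Mtxyl1, MYCTH_2294281 and MYCTH_2073132, lay between -0.32 and 0.26 against JG207 in the 3 disrupted strains and were not called. In DF1102 against JG207, MYCTH_90655 beside xdh1 was at 0.68 (edgeR adjusted p = 6.1e-04) and MYCTH_2305218 beside xkia at 0.72 (edgeR adjusted p = 8.8e-04), both above 0 as xdh1 and xkia were, and both under the fold of 2. Actin (MYCTH_2314852) was the study's internal control for gene copy number in genomic DNA, not for expression. Its log2 fold change was between -0.25 and 0.19 in the 6 comparisons. It was not called, and its lowest edgeR adjusted p was 0.18.

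The genes with patterns most like each of the 5 were found by the root mean square difference of log2 CPM, after each gene was centred on its mean over the 8 libraries. The 3 nearest of 8334 genes are given as a description, over 8 libraries from only 4 strains. For xdh1 they were MYCTH_2296673, which matches a subunit of the yeast Npr2/3 complex that dampens TORC1, at a difference of 0.094 and a Pearson r of 0.99, and MYCTH_2085453 and MYCTH_2306743, with no description, at 0.097 and 0.098. For xkia they were MYCTH_81869, with no description, at 0.087 and r of 0.99, MYCTH_2312755, which matches dihydrosphingosine phosphate lyase, at 0.099, and MYCTH_2313225, with no description, at 0.105. MYCTH_113236 was nearest to MYCTH_38472, which matches phosphomevalonate kinase of sterol synthesis, at 0.076 and r of 0.95, then to MYCTH_2311164, a putative serine hydrolase, at 0.082, and to MYCTH_2307620 at 0.088.

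Mtxyl1 and Mtxyd1 had no pattern as near. For Mtxyl1 the nearest, MYCTH_2064803, which matches a dienoyl-CoA reductase, was at 0.71 and r of 0.91 and stood at between 0.0562 and 1.13 RPKM in the 8 libraries. MYCTH_115983, with no description, and MYCTH_92449, which matches a zinc-finger factor, followed, both at 0.73. For Mtxyd1 the nearest was MYCTH_2301693, with no description, at 0.42 and r of 0.96, with at most 13.0 RPKM. MYCTH_2300079, which matches the catalytic subunit of glucosidase II, came next at 0.46 and r of 0.97. It stood at 157 and 107 RPKM in DF1406, 48.0 and 46.9 in DF1501, 39.4 and 32.1 in DF1102, and 13.7 and 11.7 in JG207, the same order of strains as Mtxyd1. MYCTH_75490, which matches a neutral trehalase, followed at 0.59. The centred levels of Mtxyl1 and Mtxyd1 ranged over 4.06 and 4.33 on the log2 scale, and those of xkia, xdh1 and MYCTH_113236 over 1.65, 1.41 and 0.71.

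**Figure D5:**
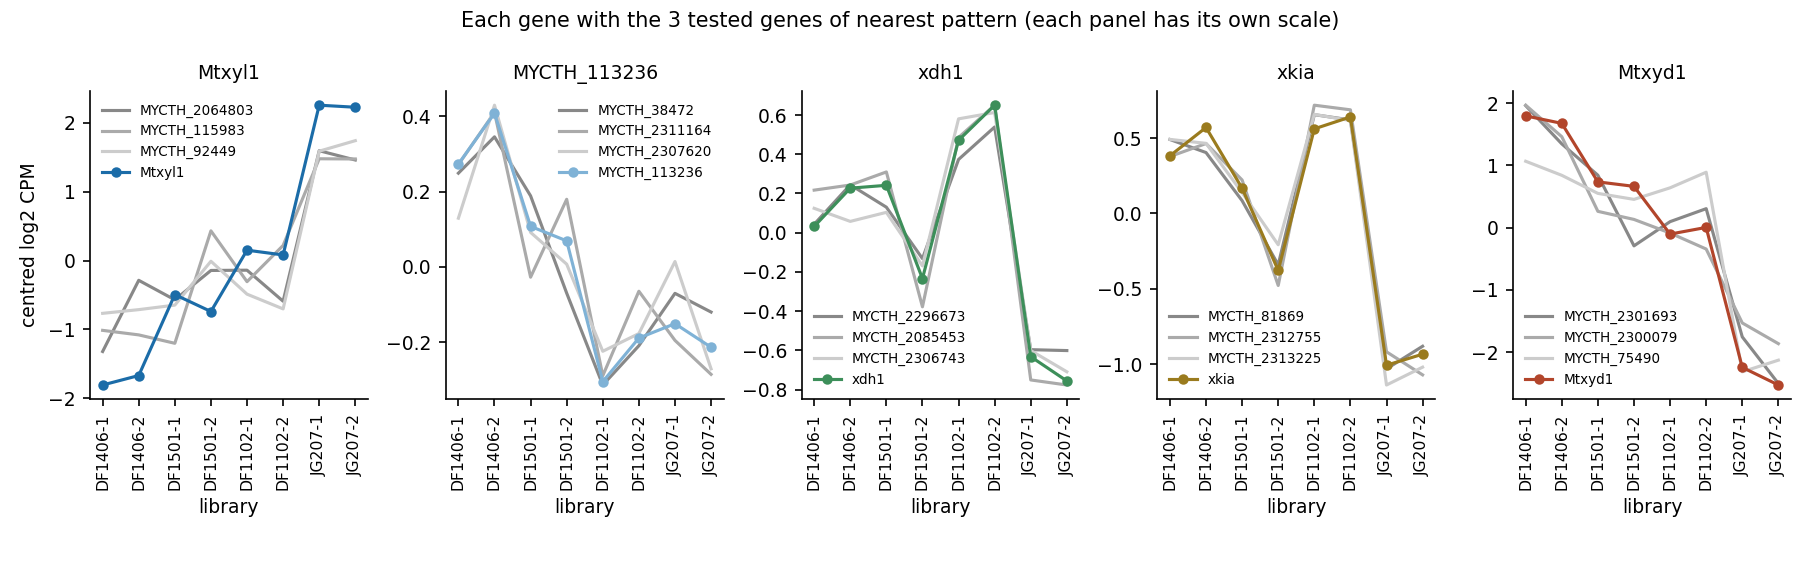
Centred log2 CPM (y axis, with its own scale in each panel) of each gene (coloured, with points) and of the 3 tested genes nearest to it (grey) over the 8 libraries (x axis, strain and replicate). The grey lines stay within 0.11 (root mean square) of xdh1, xkia and MYCTH_113236, and lie 0.42 to 0.73 from Mtxyl1 and Mtxyd1.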

How the data were processed

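RNA was sequenced on the DNBSEQ platform from 8 libraries, 2 for each of 4 strains, grouped by the strain in their titles. Reads were cleaned by the authors (SOAPnuke) and aligned to the M. thermophila genome (TopHat2 2.0.12), and HTSeq 0.13.5 gave the deposited counts of uniquely assigned reads per gene. The strand setting is not given in the sources used here. The deposited counts were used as they stand, apart from 3 rows without a gene identifier. The deposited RPKM values scale the counts by 1 length for each gene and by the library total, and were used for levels and ratios. Since the annotation at hand is of another named assembly (RefSeq ASM22609v1), it served only to find neighbouring genes, and no positions are given.

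Counts were fitted in edgeR 4.0.16 (R 4.3.3) with TMM factors between 0.954 and 1.05, a mean per strain over all 8 libraries, and the default filter (minimum count 10). SE was taken as |log2 fold change| over the square root of F. Precision was limited by 2 libraries per strain. For the lowest count, 2066, the exact Poisson 95% interval was 1978 to 2157, which covers counting error only. Alternatives were DESeq2 1.42.0, limma 3.58.1 on log2(RPKM + 1) or log2(RPKM + 0.1), RLE or library-size scaling, no filter on low values, only the 4 libraries compared, a replicate block, no minimum on the fold, and omission of each library. The scripts were tested on simulated data. The genes, lists and naming rule (at most 3 largest changes per list and comparison, rpe, tkl and tal always, and the 3 nearest patterns) were chosen with earlier results of these data known. Another pentose phosphate gene is not reported here, and the list was counted without it. The authors' own comparisons of expression were not used.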

Additional observations from a re-analysis of the deposited data

How the results depend on the processing

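Of 510 recomputed log2 fold changes of the 5 genes, 486 kept their direction and side of the threshold, 20 lost and 3 gained a call, and 1 changed sign, xdh1 in DF1406 against DF1501, at -0.11 without DF1501 replicate 2 and up to 0.37 without DF1501 replicate 1 (0.11 with all libraries, and not called in any of these). The cause was not tested. With no fold minimum, the genes called were 5 rather than 3 in DF1406 against JG207 and 4 rather than 2 in DF1501 against JG207, which follows from the lower threshold. With only the 4 libraries compared, 0 rather than 2 were called in DF1406 against DF1501, where fewer libraries estimate the spread. Leaving out 1 library gave 4 to 4 genes called in DF1102 against JG207, 3 to 3 in DF1406 and 2 to 3 in DF1501 against JG207, 2 to 3 in DF1406 and 1 to 4 in DF1501 against DF1102, and 0 to 3 in DF1406 against DF1501. A strain left with 1 library was assumed to vary like the others.

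Over all genes, 1011 were called in DF1406 against DF1102, 64.4% of them higher, and scaling by library size alone made this 50.6% of 1035, with 51.1% to 52.2% in limma. Without DF1102 replicate 1 there were 166 calls, without DF1102 replicate 2 there were 346, and without DF1406 replicate 1 or 2 there were 452 or 340. In DF1501 against DF1102, 1777 became 1183 without DF1102 replicate 1. In DF1406 against DF1501, 316 calls (48.4% higher) became 447 (36.0% higher) with library size alone, 510 in DESeq2, 163 and 161 without DF1102 replicate 1 or 2, 13 without either library of DF1406, and 792 and 196 without DF1501 replicate 1 or 2. With no fold minimum the calls numbered 3075 in DF1406, 1773 in DF1501 and 4774 in DF1102 against JG207, and 1815 and 2871 in DF1406 and DF1501 against DF1102.

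The labels give the strains the same replicate numbers but no pairing. Deviations of same-numbered libraries correlated between -0.22 and 0.17 over the 6 pairs of strains, so the numbers were not taken to pair libraries. With a replicate block the genes called were 4 in DF1102 against JG207, 3 in DF1406 and 2 in DF1501 against JG207, 3 in each strain against DF1102 and 2 in DF1406 against DF1501, as without it. Recounts of the 3 gene lists under these alternatives were chosen after seeing the data, and 294 of 324 stayed within 1.5 times the main count.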
